A study of Mus musculus with 16 samples.

Results

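The 9 genes described here encode proteins of central nervous system myelin: Mog, Mbp, Mag, Mobp, Cnp, Opalin, Cldn11, Mal and Ermn. They were chosen by name, as the rows with these symbols among the 21878 mRNAs of the count and FPKM tables. All 9 passed the filter of at least 16 counts in total over the libraries and were among the 17885 mRNAs tested. FPKM is the number of fragments per kilobase of transcript, scaled to the total of the library, and it was the scale used to compare levels between genes. The libraries were described as coming from CD11b+/CD45int microglia, sorted from the brains of female wild-type C57BL/6 mice. The age given, 8 weeks, stands in the methods ahead of the immunization, and tissue was taken later. Each mouse gave 1 stranded library of total RNA depleted of ribosomal RNA. The 8 EAE mice had experimental autoimmune encephalomyelitis, a paralytic disease induced by immunization against a peptide of Mog, residues 35 to 55, in complete Freund's adjuvant, with 200 ng of pertussis toxin on days 0, 2 and 7. The 8 control mice received PBS on the same schedule, and whether they also received adjuvant or toxin is not given in the sources used here. Tissue was taken at the peak of disease. The treatment field of the labels gives the last residue of the peptide as a different number in each EAE mouse, from 55 to 62. The labels give the amount of peptide as 200 µg for every EAE mouse. The question put to these data was whether transcripts of myelin genes, among them the gene of the immunogen, differed between the libraries of the 2 groups.

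Myelin is the sheath of tightly wrapped membrane with which oligodendrocytes insulate axons in the brain and spinal cord. Its proteins divide the work: some hold the layers together, some sit on the outer or the axon-facing surface, and some belong to the cytoskeleton or to the sorting of membrane in the oligodendrocyte. Microglia, the resident macrophages of the brain, do not make the sheath, and they engulf myelin when the sheath breaks down. EAE is an attack of the adaptive immune system on myelin. Mog, a classical target, is exposed on the outermost layer of the sheath.

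The sort was checked against marker lists. All 17 microglia markers, from Tmem119 and P2ry12 to the complement genes C1qa and C1qb, were detected, and the mean FPKM per marker was 12.3 to 21.2 over the 16 libraries. The 9 myelin genes had a mean FPKM per gene of 84.8 to 122.4 in the same libraries. The 9 neuron markers, such as Snap25 and Slc17a7, lay at 106.2 to 139.3, and the 7 astrocyte markers, such as Slc1a2 and Aldoc, at 157.9 to 239.6. In every library the mean over the myelin, neuron or astrocyte list was thus above the mean over the microglia list. The values below therefore describe the libraries as a whole and cannot be read as levels in microglia. The peripheral myelin list, genes of Schwann cells, had a mean FPKM per gene of 1.34 to 2.32. Of that list, Pmp22 (300 to 642 counts) and Prx (36 to 110 counts) were detected in every library, and Pmp2 was at 0 in some. The T cell list lay at 0.189 to 0.551, with Cd4 (55 to 181 counts) and Cd8a (5 to 26 counts) in every library and Cd3e, Cd3d and Cd3g at 0 in some. Which cells the myelin transcripts came from was not tested. Fewer cells of a type and less RNA per cell cannot be told apart in these bulk libraries.

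**Figure D1:**
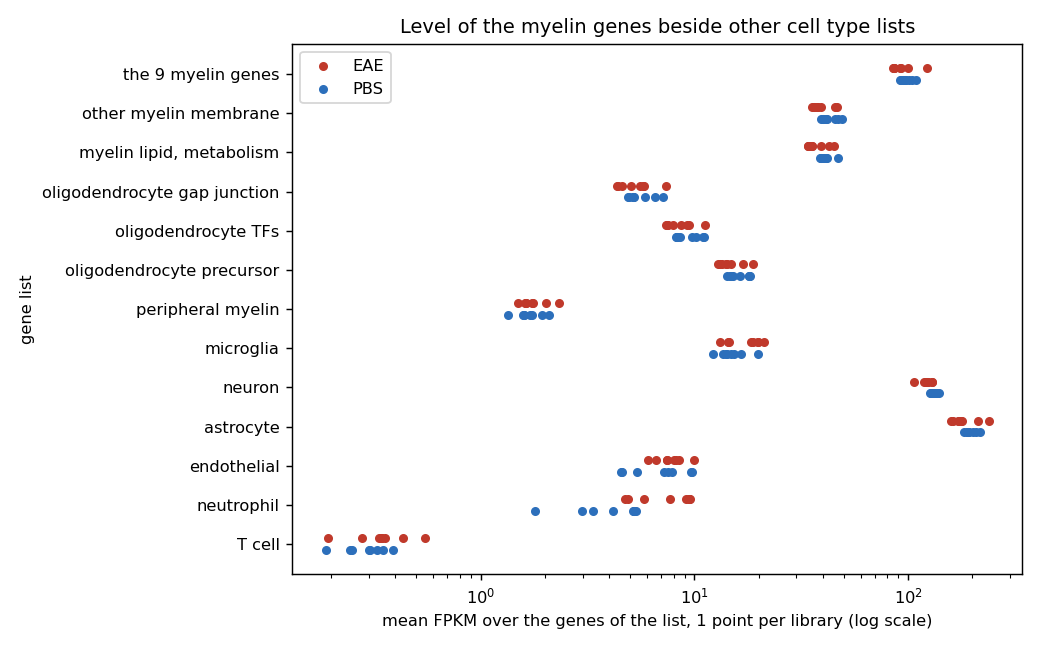
Mean FPKM over the genes of each fixed list (log axis, 1 point per library, 8 EAE in red and 8 PBS in blue). The 9 myelin genes lay between 84.8 and 122.4 in the 16 libraries, and the 17 microglia markers between 12.3 and 21.2.

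Total counts per library were 24587443 to 30244215 in the EAE group and 26031889 to 34184576 in the PBS group. The libraries were not equally alike. The squared difference between a pair of libraries, divided by that of counting noise, was 3.02 to 3.63 among EAE 6, EAE 7 and EAE 8 and 5.74 to 24.5 for other EAE pairs. It was 3.29 to 4.08 among PBS 5, PBS 7 and PBS 8 and 7.42 to 24.2 for other PBS pairs. No pair was as close as counting noise alone. This measure cannot tell whether libraries share RNA or handling, and each library was counted once, as the labels list it. The labels name no batch, and this set of 6 libraries was known from earlier results of the same data. Results within and outside it are therefore given below.

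None of the 9 myelin genes passed the test between EAE and PBS mice. In the quasi-likelihood test of edgeR, adjusted by Benjamini-Hochberg over all mRNAs tested, 0 of 9 had an adjusted p under 0.05, against 433 of 17885 mRNAs (2.42%). Of those 433, 118 were higher and 315 lower in EAE mice. Scaled by library totals only, 329 passed, of which 226 were higher and 103 lower. With the additional threshold of |log2FC| over 1, 0 of 9 passed, against 21 mRNAs (0.117%). At an unadjusted p under 0.05 in edgeR the count was 3 of 9 (Cnp, Opalin and Mal), against 17.4% of all mRNAs tested. With library totals only it was 1 of 9, Opalin. The exact permutation p on FPKM (two-sided, unadjusted) was 0.0957 for Cnp, 0.1745 for Mal and 0.0127 for Opalin. The TMM scaling factors were 1.005 to 1.032 in EAE and 0.960 to 0.997 in PBS libraries, without overlap. At an adjusted p under 0.05, DESeq2 and limma also called 0 of 9. How many of all mRNAs these 2 tools called is not given here, so their counts stand without a share. The log2FC (EAE over PBS) was above 0 for 2 genes and below 0 for 7, with a median of -0.13, where the median over all mRNAs tested was 0.01. With library totals only, which moved the median of all mRNAs to 0.06, it was above 0 for 4 genes and below 0 for 5. The 95% confidence intervals of the 9 log2FC values lay within -0.48 and 0.71.

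**Figure D2:**
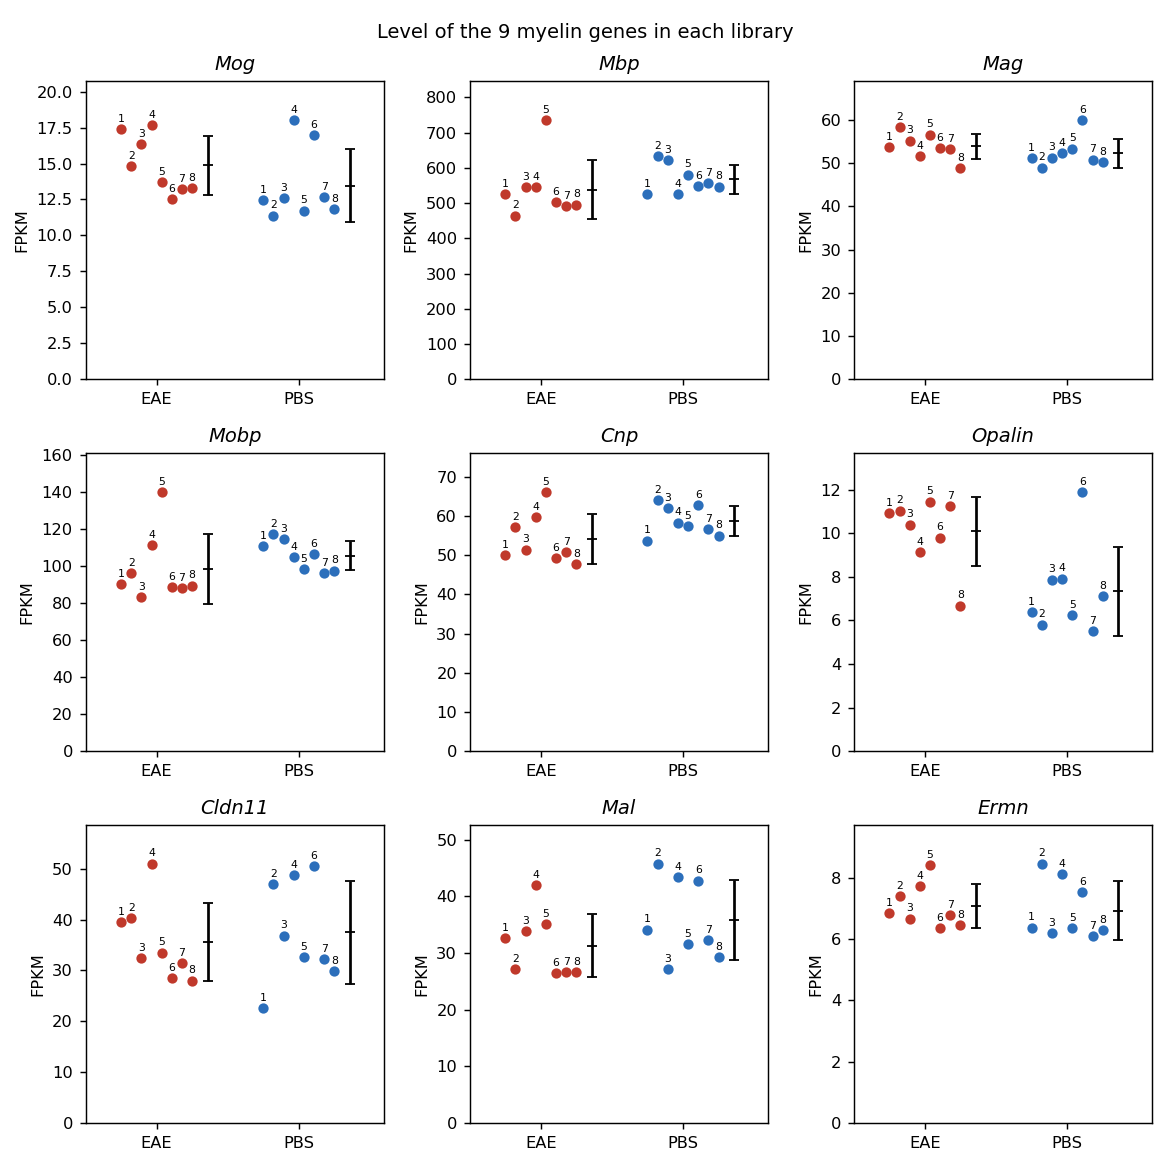
FPKM of each of the 9 genes in every library (red EAE, blue PBS, numbered by replicate; black bars show mean and SD, n = 8 per group; each axis starts at 0). The 2 groups overlapped for every gene, and EAE 5 stood highest for Mbp, Mobp and Cnp, as did PBS 6 for Mag and Opalin.

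On the scale of FPKM, Mbp was by far the most abundant of the 9, with a mean of 553.0 ± 66.1 (SD, n = 16) over all libraries, and ranked 12 among all mRNAs. Mobp followed at 102.0 ± 14.5. The ranges of Mbp and Mobp did not overlap, and nor did those of Mobp and Cnp. Cnp (56.4 ± 5.62) and Mag (53.0 ± 3.15) were neighbours that did not separate, with Cnp higher in 10 of 16 libraries. Cldn11 (36.6 ± 8.76) and Mal (33.6 ± 6.63) overlapped likewise, with Cldn11 higher in 12 of 16. Below them came Mog at 14.2 ± 2.34, lower than Mal in all 16 libraries with no overlap of the ranges. Opalin (8.72 ± 2.27) was below Mog in each of the 16 libraries, although their ranges overlapped, and Ermn (7.00 ± 0.819) was below Opalin in 12 of 16. The order depended in part on the length by which the counts were divided. The deposited values imply a length of 892 bases for Opalin, whereas its annotated exons cover 2946 bases. Divided by the annotated exon length, the mean of Opalin was 2.64, under the 6.78 of Ermn, and that of Mag was 34.4, under the 36.6 of Cldn11. Comparisons between groups within a gene are not touched by this length.

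The genes lie apart in the genome, on 8 chromosomes of GRCm38 (GENCODE annotation). Mog spans chr17:37010743-37023398 on the minus strand, Mag chr7:30899176-30914873 (minus), Mobp chr9:120149707-120181484 (plus), Cnp chr11:100574904-100591729 (plus), Opalin chr19:41061710-41077113 (minus) and Cldn11 chr3:31149920-31164324 (plus). Mal at chr2:127633226-127656695 and Ermn at chr2:58045113-58052864 share a chromosome and the minus strand. Mbp spans chr18:82475146-82585637 on the plus strand. Cnp overlaps Dnajc7 and Ermn overlaps Galnt5 on the opposite strand, and the strand setting of the counting was not given in the sources used here. Reads from the overlapping stretches could then have been assigned to either gene or dropped.

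Mog, the myelin oligodendrocyte glycoprotein that faces the outside of the sheath, was detected at similar levels in both groups. In EAE mice its FPKM ran from 12.5 in EAE 6 through a median of 14.3 to 17.7 in EAE 4. In PBS mice it ran from 11.4 in PBS 2 through a median of 12.5 to 18.0 in PBS 4. The groups overlapped: 7 of 8 EAE libraries were above the PBS median and 4 of 8 PBS libraries were below every EAE library, but PBS 4 was above all of them. The means were 14.9 ± 2.03 and 13.5 ± 2.55 (SD, n = 8 each), with an exact permutation p of 0.234 (two-sided, unadjusted). The log2FC was 0.09 (SE 0.10, 95% CI -0.11 to 0.30, adjusted p = 0.677, edgeR). Leaving out 1 library moved it to between 0.06 (without EAE 4) and 0.17 (without PBS 4). The interval corresponds to 0.925 to 1.23 times the PBS level. The counts behind these values were 783 to 1098 in EAE and 771 to 1234 in PBS libraries.

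The immunizing peptide corresponds to 63 bases of this transcript, which lie inside exon 2 of 8, at chr17:37020555-37020617 on the minus strand of GRCm38. They encode residues 35 to 55 of the mature chain, counted after a signal peptide of 29 residues, and are shown because they are the part of the transcript that the immunogen represents. All bases are coding and are given in lower case, 5′ to 3′:
Mog residues 35 to 55: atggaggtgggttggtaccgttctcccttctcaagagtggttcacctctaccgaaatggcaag
The counts are sums over the whole gene and do not resolve this stretch.

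Mbp and Mobp encode basic proteins that hold the cytoplasmic faces of compact myelin together, and Cnp encodes the cyclic nucleotide phosphodiesterase of its noncompacted channels. The values of all 3 genes were lower in most EAE libraries, and EAE 5 went the other way. Mbp ran from 464.4 (EAE 2) through a median of 514.3 to 736.2 (EAE 5) in EAE mice, and from 525.7 (PBS 1) through 552.7 to 633.4 (PBS 2) in PBS mice. Of the EAE libraries, 4 were below every PBS library, and EAE 5 was above every PBS library. The log2FC of Mbp was -0.13 (SE 0.07, 95% CI -0.28 to 0.03, adjusted p = 0.397, edgeR). By count, Mbp was the 3rd most abundant mRNA in every PBS library and between rank 3 and rank 5 in the EAE libraries.

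Mobp had an FPKM of 83.0 to 140.2 in EAE mice (median 89.9) and 96.1 to 117.1 in PBS mice (median 105.6). Its log2FC was -0.16 (SE 0.09, 95% CI -0.33 to 0.02, adjusted p = 0.369, edgeR). Cnp ran from 47.8 to 66.2 in EAE mice (median 51.1) and from 53.7 to 64.0 in PBS mice (median 57.8), with a log2FC of -0.17 (SE 0.06, 95% CI -0.30 to -0.04, adjusted p = 0.155, edgeR). For each of these 2 genes, 5 of 8 EAE libraries lay below every PBS library, while EAE 5 was above all of them.

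Without EAE 5, all 3 genes passed the test. Each library was left out in turn, and this fit is singled out because EAE 5 held the highest value of all 3 genes. The adjusted p-values below therefore follow in part from that choice. In that edgeR fit, the log2FC of Mbp was -0.21 (adjusted p = 0.0278), that of Mobp -0.25 (adjusted p = 0.0256) and that of Cnp -0.22 (adjusted p = 0.0266). The background rose as well, from 433 mRNAs to 901 of 17827 (5.05%). EAE 5 also had the lowest summed FPKM of the neuron markers of any library (956, against 1136 to 1254 in PBS mice) and the highest of the astrocyte markers (1677, against 1277 to 1516). The part of these values in the difference was not tested.

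**Figure D3:**
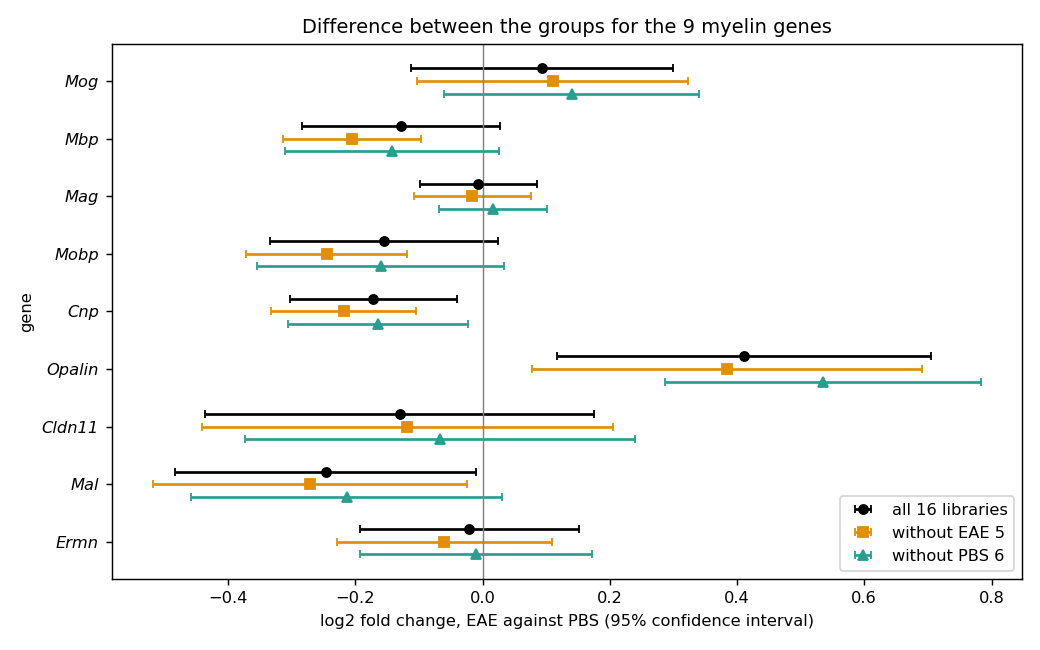
log2 fold change of each gene, EAE against PBS, with its 95% confidence interval, from all 16 libraries (circles), without EAE 5 (squares) and without PBS 6 (triangles), from the same edgeR test. The intervals are not adjusted for the number of mRNAs tested. In all 3 fits the interval of Cnp lay below 0 and that of Opalin above 0. Those of Mbp and Mobp lay below 0 without EAE 5, and that of Mal in the fits with PBS 6. With all 16 libraries the adjusted p (edgeR) was 0.1548 for Cnp and 0.1275 for Opalin, and 17.4% of all mRNAs had an unadjusted p under 0.05. EAE 5 held the highest value of Mbp, Mobp and Cnp, and PBS 6 that of Opalin. The intervals of these genes without that library follow in part from leaving it out.

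Opalin, a transmembrane protein of the inner loop and paranodal membrane that is made late in oligodendrocyte maturation, had the largest log2FC of the 9 with all libraries. Its FPKM ran from 6.69 (EAE 8) through a median of 10.7 to 11.5 in EAE mice, and from 5.51 through a median of 6.75 to 11.9 (PBS 6) in PBS mice. All EAE libraries other than EAE 8 were above the PBS median, and PBS 6 was above every EAE library. The means were 10.1 ± 1.58 and 7.35 ± 2.05 (SD, n = 8 each; exact permutation p = 0.0127, two-sided and unadjusted). The log2FC was 0.41 (SE 0.14, 95% CI 0.12 to 0.71), and the adjusted p was 0.128 (edgeR). Over the 11 fits that kept all 16 libraries, the adjusted p ranged from 0.0685 to 0.137. Without PBS 6 the log2FC was 0.54 (adjusted p = 0.0192, edgeR), in a fit that called 2.78% of the mRNAs. PBS 6 held the highest value of Opalin, so this adjusted p follows in part from leaving it out. The counts of Opalin were 151 to 309 in EAE and 148 to 296 in PBS libraries.

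Mag, the sialic acid-binding adhesion protein of the membrane next to the axon, stood close in the 2 groups. Its FPKM was 48.9 to 58.3 in EAE mice (median 53.5) and 48.9 to 60.0 in PBS mice (median 51.2), with PBS 6 the highest. The log2FC was -0.01 (SE 0.04, 95% CI -0.10 to 0.08, adjusted p = 0.959, edgeR), which was the narrowest interval of the 9 genes.

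Cldn11, the tight junction protein that seals the layers of the sheath, varied widely within both groups. It ran from 28.0 to 51.0 in EAE mice (median 33.0) and from 22.5 (PBS 1) to 50.5 (PBS 6) in PBS mice (median 34.7). The log2FC was -0.13 with a wide interval (SE 0.15, 95% CI -0.44 to 0.18, adjusted p = 0.701, edgeR). Mal, a lipid raft proteolipid that carries membrane to the sheath, had an FPKM of 26.4 to 42.0 in EAE mice (median 29.9) and 27.2 to 45.8 in PBS mice (median 33.2). Its log2FC was -0.25 (SE 0.11, 95% CI -0.48 to -0.01, adjusted p = 0.265, edgeR). Ermn, the cytoskeletal protein ermin of mature oligodendrocytes, had the lowest level of the 9 by deposited FPKM (but not by annotated exon length), with 6.35 to 8.42 in EAE mice (median 6.81) and 6.09 to 8.46 in PBS mice (median 6.36). Its log2FC was -0.02 (SE 0.08, 95% CI -0.19 to 0.15, adjusted p = 0.930, edgeR). For Mag and Ermn the sign turned with library totals only, to 0.04 and 0.03.

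Within EAE 6, EAE 7 and EAE 8 against PBS 5, PBS 7 and PBS 8, 5 of the 9 genes passed the edgeR test, where 4147 of 17239 mRNAs (24.1%) did. Mbp (log2FC -0.21, adjusted p = 5.54e-07), Cnp (-0.22, adjusted p = 8.63e-05), Mobp (-0.16, adjusted p = 0.000143) and Mal (-0.26, adjusted p = 0.000205) were lower in EAE mice, and Opalin was higher (0.53, adjusted p = 0.0182). These 6 libraries were set apart because they were alike, so the small spread behind these p-values follows from how they were chosen. Among the other 5 libraries of each group, 0 of 9 passed in edgeR and 0 of 9 had an unadjusted p under 0.05, where 13 of 17461 mRNAs (0.0745%) passed. The median log2FC of the 9 genes was -0.14 in the first set and -0.09 in the second.

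Added up, the 9 genes held 0.412% to 0.619% of the counts in EAE libraries (median 0.438%) and 0.454% to 0.541% in PBS libraries (median 0.477%). EAE 5 had the highest share of any library, and 5 of 8 EAE libraries were below every PBS library. Mbp made up 59.8% to 66.9% of the summed FPKM of the 9 in EAE mice and 60.4% to 66.2% in PBS mice. The proportions among the genes were described by ratios within a library, which are free of the scaling between libraries. The FPKM of Opalin per 100 of Mbp was 1.35 to 2.38 in EAE mice (median 1.93) and 0.917 to 2.17 in PBS mice (median 1.24). All 8 EAE libraries were above the PBS median of this ratio, and 6 of 8 PBS libraries were below every EAE library. The FPKM of Mal per 100 of Opalin was 237.0 to 458.6 in EAE mice and 345.6 to 788.8 in PBS mice, with 6 of 8 EAE libraries below every PBS library. Cnp per 100 of Mag was 92.2 to 117.0 in EAE mice and 104.9 to 130.8 in PBS mice, again with 6 of 8 EAE libraries below every PBS library. Mog per 100 of Mbp overlapped widely, at 1.86 to 3.31 in EAE mice and 1.80 to 3.43 in PBS mice. These ratios were chosen with the values known and carry no test.

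**Figure D4:**
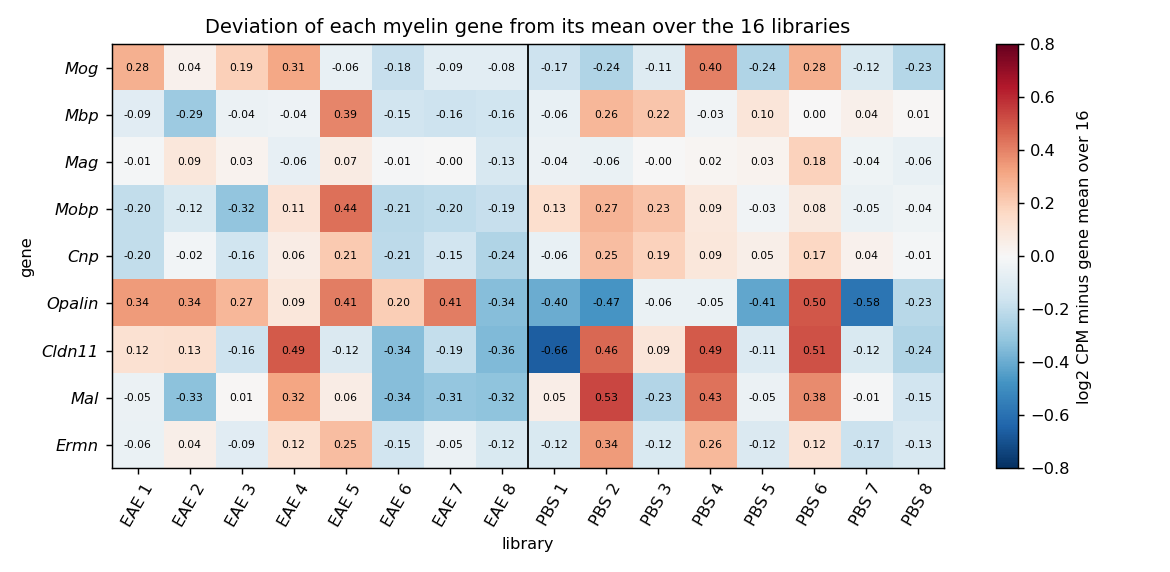
log2 CPM of each gene in each library minus the mean of that gene over the 16 libraries (red above, blue below, values in the cells, groups divided by the black line). PBS 6 was above the mean for every gene, though barely for Mbp. EAE 5 was above it for all genes but Mog and Cldn11, and PBS 4 for all but Mbp and Opalin.

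The 9 genes did not vary as 1 block from library to library. After each group was centred at its mean, 34 of 36 pairs of genes had a Pearson r above 0 over the 16 libraries, 14 pairs had an r above 0.5, and the median r was 0.39. The pairs share libraries and scaling, so these are descriptions without a test. By Pearson r over all libraries, Mobp and Cnp were the most alike (r = 0.85), followed by Mag and Opalin (r = 0.85) and by Mal and Ermn (r = 0.81). Without EAE 5, Mobp and Cnp had an r of 0.75, below Mag and Opalin (0.84) and Mal and Ermn (0.81). By Spearman rank correlation, Cldn11 and Ermn were the most alike (0.77, against 0.64 for Mobp and Cnp). Mbp and Mobp had an r of 0.77, which was 0.44 without EAE 5. Mog and Mbp had an r of -0.17. Mog was high in EAE 1, EAE 4, PBS 4 and PBS 6, whereas Mbp was highest in EAE 5, PBS 2 and PBS 3.

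Among 12861 mRNAs with a mean of at least 100 counts, those whose centred log2 CPM was most like the mean of the 9 were Npc2 and Csf1r (r = 0.90 each), Bend6 (0.89), Hes5 (0.88), Olig1 (0.87), Pdgfra, Atp5d, Lrig3, Clic6 and Aldh1a1 (0.86 each). Csf1r encodes a growth factor receptor of microglia, Olig1 a transcription factor of the oligodendrocyte lineage and Pdgfra the growth factor receptor that marks its precursors. Without EAE 5 and PBS 6, the libraries farthest from the median, r was 0.79 to 0.89 for these 10 genes. Of the 12861 mRNAs, 17.2% had an r above 0.5. For Mog alone, the most similar were Cadm1 and Ccdc58 (r = 0.96 each), Fam19a1 and Ppp1r9a (0.94 each) and Efcab1 (0.93), none of which is a myelin gene of the lists used here. Without PBS 4 and PBS 6 these values were 0.87 to 0.94. No p is given, since the genes were picked for their likeness.

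The wider myelin program was examined in 25 further genes for membrane proteins, lipid synthesis and gap junctions. In the edgeR test, 0 of 25 passed, against 2.42% of all mRNAs tested. An unadjusted p under 0.05 was found for 3 of 25, against 17.4%. Of the 25, 9 were above 0 and 16 below, and the median log2FC was -0.05. At an adjusted p under 0.05, limma also called 0 of 25, whereas DESeq2 called 2, Apod among them, both lower in EAE mice. Plekhb1, among the most abundant of the membrane genes, had a log2FC of -0.19 (adjusted p = 0.274). Trf, which encodes the iron carrier transferrin, had a log2FC of -0.05 (adjusted p = 0.757), and Apod, a lipid-binding apolipoprotein, had the lowest adjusted p of the 25 (log2FC -0.47, adjusted p = 0.0586). The gap junction genes Gjc3 (-0.19, adjusted p = 0.332) and Gjb1 (0.05, adjusted p = 0.924) did not pass either.

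Of 9 transcription factors of the lineage, 0 passed in edgeR. At an unadjusted p under 0.05 the count was 1, against 17.4% of all mRNAs tested. Olig1 had a log2FC of -0.42 (adjusted p = 0.107), and Myrf, which switches on myelin genes, 0.07 (adjusted p = 0.534). All 7 precursor genes had a log2FC below 0, with a median of -0.14, and 0 of 7 passed (1 had an unadjusted p under 0.05). DESeq2 and limma also called 0 of the transcription factors and 0 of the precursor genes. The most abundant of them were Ptprz1 (-0.19, adjusted p = 0.149) and Pdgfra (-0.14, adjusted p = 0.427). Of the 3 peripheral myelin genes tested, 0 passed, at an unadjusted p under 0.05 as well. Pmp22 had a log2FC of 0.02 (adjusted p = 0.942) and Prx of 0.20 (adjusted p = 0.638).

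**Figure D5:**
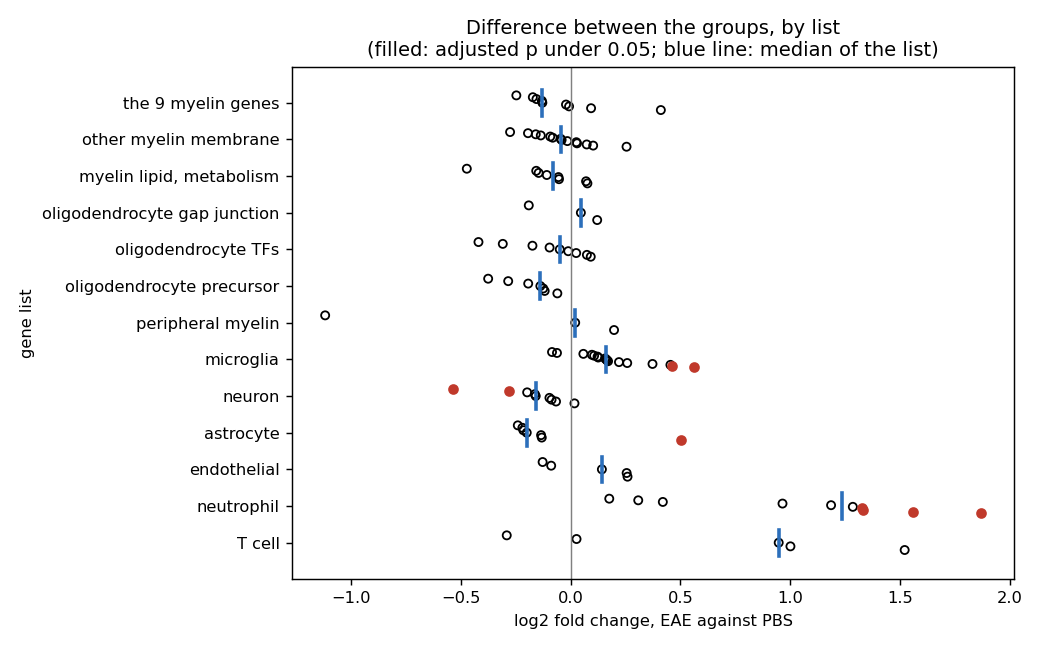
log2 fold change of every tested gene of each list, EAE against PBS (filled red: adjusted p under 0.05 in the edgeR test over all mRNAs; open: above it; blue line: median of the list). No gene of the myelin or oligodendrocyte lists was filled, and the medians were -0.13 for the 9 myelin genes and 0.16 for the microglia markers.

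Markers of other cells gave these values beside the myelin genes, from the same edgeR test. That test called 2.42% of all mRNAs tested, and 17.4% had an unadjusted p under 0.05. Of 17 microglia markers, 2 were called higher in EAE mice: Itgam, the CD11b of the sort (log2FC 0.46, adjusted p = 0.00180), and Trem2, a lipid-sensing receptor (0.56, adjusted p = 0.0282). Their summed FPKM was 225.3 to 360.2 in EAE and 208.7 to 338.6 in PBS mice. Of 9 neuron markers, 2 were called lower, the synaptic calcium sensor Syt1 (-0.28, adjusted p = 0.0326) and Gad1, the enzyme that makes GABA (-0.53, adjusted p = 0.00309), and limma called only Gad1 of this list, whereas DESeq2 called both and Tubb3. Of 7 astrocyte markers, Gfap, the intermediate filament of reactive astrocytes, was called higher (0.50, adjusted p = 0.0312), and the other 6 had a log2FC below 0. Of 10 neutrophil markers, 4 were called higher (S100a8, S100a9, Ngp and Ltf, log2FC 1.33 to 1.87), and DESeq2 and limma called 5, these and Camp. None of 5 endothelial and 5 T cell markers was called (0 and 2 had an unadjusted p under 0.05). limma called 0 of both lists and DESeq2 0 of the endothelial list. DESeq2 gave 3 of the 5 T cell markers no adjusted p and called 0 of the other 2. After centring, the mean of each list was correlated with the mean of the 9 myelin genes, over 16 libraries that share their scaling. Pearson r was 0.82 for the precursor list, 0.65 for the microglia and the astrocyte list, -0.28 for the neuron list and -0.53 for the neutrophil list. Spearman rank correlation was 0.75 for the precursor, 0.70 for the microglia, 0.48 for the astrocyte, -0.11 for the neuron and -0.61 for the neutrophil list. The part of these lists in the values of the myelin genes was not tested.

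The sequence before the start of the gene was read from the RefSeq promoter table (GRCm38.p6), which matched 8 of the 9 genes. Searched on both strands, from 250 bases before to 50 after the start, were ACAAAG and ACAATG (core of SOX factors, the family of Sox10), CTGGCAC and CTGGTAC (MYRF) and CAGCTG and CATATG (E-boxes). ACAAAG was found in 18.71% of 32851 promoters, ACAATG in 12.57%, CTGGCAC in 5.01%, CTGGTAC in 2.24%, CAGCTG in 16.3% and CATATG in 3.91%. Mobp held 6 copies of ACAAAG, and Cnp held 1 copy of ACAAAG and 1 of CTGGCAC. Mag, which has 3 starts in the table, held 1 of each at 2 of them. Mog held 1 CTGGTAC, Ermn 1 ACAATG, and Mal and Cldn11 none of the 6 motifs. Opalin held 2 copies of ACAAAG, 1 CTGGCAC and 1 CAGCTG, all but the first ACAAAG at or beyond the start. The 250 bases before the start are shown for Mobp and Cnp, the pair of highest Pearson r with all libraries. They are also shown for Opalin, the gene with the largest log2FC. They read 5′ to 3′ on the strand of the gene, with motif matches in capitals, as the motif or its reverse complement. A match is a description of the letters only. For Mobp and Cnp, the RefSeq start lies inside the GENCODE span given above. The last bases shown for these 2 genes therefore fall within that span.
Mobp, chr9:120149492-120149741, plus strand: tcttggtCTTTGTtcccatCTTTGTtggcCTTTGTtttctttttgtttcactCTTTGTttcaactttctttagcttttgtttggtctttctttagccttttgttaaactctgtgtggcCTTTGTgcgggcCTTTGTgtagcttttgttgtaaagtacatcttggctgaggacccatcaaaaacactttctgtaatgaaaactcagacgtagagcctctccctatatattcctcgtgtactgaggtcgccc
Cnp, chr11:100574689-100574938, plus strand: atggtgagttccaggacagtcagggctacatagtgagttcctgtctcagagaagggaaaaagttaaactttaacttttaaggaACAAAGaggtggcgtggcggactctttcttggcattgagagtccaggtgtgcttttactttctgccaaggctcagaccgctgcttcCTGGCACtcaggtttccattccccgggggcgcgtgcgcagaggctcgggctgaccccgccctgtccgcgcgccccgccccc
Opalin, chr19:41077114-41077363, minus strand: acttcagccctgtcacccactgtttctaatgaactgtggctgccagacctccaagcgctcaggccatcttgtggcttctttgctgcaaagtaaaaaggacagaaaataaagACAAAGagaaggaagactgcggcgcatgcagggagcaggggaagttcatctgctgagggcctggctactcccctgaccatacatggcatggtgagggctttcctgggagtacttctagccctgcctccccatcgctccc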

How the data were processed

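RNA was sequenced from cells described as sorted CD11b+/CD45int microglia of 8 EAE and 8 PBS mice. Per the labels, the submitters' processing notes name bcl2fastq, HISAT2 2.1.0, HTSeq 0.11.2 and DESeq2 1.22.2 and the build GRCm38. The authors deposited raw counts per mRNA and FPKM values for the same 16 libraries. In 7749 mRNAs (above 500 counts in each library) the length implied by FPKM, count and library total was the same in all libraries within a relative 1.15e-09, so both units hold the same counts. The strand setting of the counting is not given in the sources used here.

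The counts were tested here in R 4.3.3 with edgeR 4.0.16 (quasi-likelihood, TMM, condition only, at least 16 counts in total, Benjamini-Hochberg over all mRNAs tested). Thresholds were an adjusted p of 0.05 and, where stated, a |log2FC| of 1. Single-gene FPKM was compared by an exact permutation test over all 12870 divisions. Alternatives were DESeq2 1.42.0, limma 3.58.1 on log2(FPKM + 1) and log2(FPKM + 0.1), other scalings and filters, a replicate block and leaving out each library. log2 CPM used a prior count of 2. The scripts were tested on simulated data. The genes named are the 9, the 2 most abundant and any called gene of each other list, and the genes most like the 9 or Mog; some genes that the rule names are not reported here. Apod, Pmp2, Tmem119, P2ry12, the Cd3 genes, Tubb3 and Camp were named after their values were seen. The members and lists were chosen with earlier results of these data known. The comparison with annotated exon lengths was added after seeing the data. Where nothing says how mice were housed or processed together, p-values measure the spread between these samples. Intervals cover the spread between libraries, at total counts of 24587443 to 34184576.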

Additional observations from a re-analysis of the deposited data

Results flagged for a closer look

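In groups of 8 libraries, a value was singled out where its gap to the nearest other library, divided by the range of the group, was above Dixon's 95% critical value for 8 values. This was the case in 3 of 18 groups tested (9 genes in 2 groups). Chance gives about 1 in 20 for independent groups, but these genes share their libraries. The 3 of 18 can therefore not be read as an excess over chance, and the share over all mRNAs is not given here. The FPKM of Mbp in EAE 5 was 736.2, where the other EAE libraries lay at 464.4 to 544.7. The FPKM of Mag in PBS 6 was 59.95, where the other PBS libraries lay at 48.9 to 53.3. The FPKM of Opalin in PBS 6 was 11.9, where the other PBS libraries lay at 5.51 to 7.92. The values of Mag and Opalin thus stood apart in the same library.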

How the results depend on the processing

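With all 16 libraries, 0 of the 9 genes had an adjusted p under 0.05 in each of the 11 fits run, and no alternative gave a call with the fold threshold. Of 252 values of log2FC over 28 alternatives, 230 kept their sign and their side of the threshold, 9 passed it and 13 changed sign, all 13 for Mag or Ermn. The sign of Mag and Ermn changed with library totals only (0.0437 and 0.0314), with limma on log2(FPKM + 1) (0.0434 and 0.0311) and on log2(FPKM + 0.1) (0.0441 and 0.0357). Within EAE 6, 7, 8 and PBS 5, 7, 8, 5 genes were called and the log2FC was -0.21 for Mbp, -0.16 for Mobp, -0.22 for Cnp, 0.53 for Opalin, -0.26 for Mal and 0.034 for Ermn. The cause was not tested.

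Leaving out 1 library at a time gave 0 to 3 called genes, with 3 without EAE 5 and 1 without PBS 6. The log2FC then ranged from -0.21 to -0.10 for Mbp, from -0.25 to -0.12 for Mobp, from -0.22 to -0.15 for Cnp and from 0.36 to 0.54 for Opalin. For Mog it ranged from 0.06 to 0.17, and moved by over 1.5 times without EAE 1, EAE 4 or PBS 5 (0.06 each) and without PBS 4 (0.17). For Cldn11 it ranged from -0.22 to -0.07, and moved by over 1.5 times without EAE 4 (-0.22), PBS 1 (-0.21), PBS 2, PBS 4 or PBS 6 (-0.07 each). It ranged from -0.019 to 0.016 for Mag and from -0.060 to 0.033 for Ermn. Single values above 0 were 0.0051 (without EAE 4), 0.0052 (without EAE 8) and 0.016 (without PBS 6) for Mag, and 0.0017 (without EAE 6), 0.033 (without PBS 2) and 0.017 (without PBS 4) for Ermn. The median over the 9 ranged from -0.15 to -0.07, with -0.07 without PBS 2, PBS 4 or PBS 6.

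The replicate numbers were not taken as a pairing. The deviations of same-numbered libraries correlated above 0.1 in 3 of 8 pairs, at 0.62 for replicate 4, 0.37 for replicate 8 and 0.23 for replicate 7. The other pairs lay at -0.27 to -0.18, and 2 EAE libraries correlated best with their own number. Whether same-numbered libraries shared handling was not tested. The fit with the replicate block called 0 of 9 genes, with a lowest adjusted p of 0.109 for Cnp. Over all mRNAs, the number with an adjusted p under 0.05 was 433 with all libraries, 901 without EAE 5, 4147 within EAE 6, 7, 8 and PBS 5, 7, 8 and 13 in the other 5 libraries of each group. The fewest counts per library were those of Opalin, 148 to 309.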
